A study of Mus musculus with 6 samples.

Results

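The collagen genes of HL-1 cells were followed across the 6 libraries of a single comparison. They are all genes of the deposited table whose symbol has the form Col, a type number, the letter a and a chain number, 44 of 49492 genes in all, and 42 of them had at least 1 count. HL-1 is a line derived from mouse atrial cardiomyocytes. All 6 samples received palmitic acid, a saturated fatty acid; 3 carried vector and 3 overexpressed ZNF593-AS, a long noncoding RNA. Every library compared here had palmitic acid, so nothing bears on the fatty acid itself. By the titles the treated samples are ZNF593-AS replicates 1 to 3, but in the treatment field replicate 2 reads ZNF594-AS and replicate 3 reads ZNF595-AS. The titles were followed, and the median log2 fold change is also given without these libraries.

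Collagens are extracellular proteins built from chains that wind around each other in a stiff helix. Fibrillar collagens such as types I and III form the cables of the heart's connective tissue, type IV forms the sheet of the basement membrane around each muscle cell, and type VI forms beaded filaments between them. In heart tissue most fibrillar collagen is made by fibroblasts, and its excess is the main feature of cardiac fibrosis.

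The libraries held 51470457 to 84547615 counts, and levels are given as CPM, counts per 1e6 of TMM-scaled library size, or per length as FPKM, that is CPM per kilobase of deposited exon length. Markers of atrial myocytes were mostly near absent: 10 of 12 were under 1 CPM, Nppa, Sln and Kcna5 had no count, and Tnnt2 and Myl4 were above. Bmp10, an atrial growth factor gene, was at 1.22 to 1.94 CPM in the vector libraries and at 0 to 0.0323 CPM in the ZNF593-AS libraries. Its mean over all 6 libraries, 0.808 CPM, placed it among the 10 under 1 CPM. Among 12 fibroblast markers 8 were under 1 CPM, with a summed level of 56.8 to 57.6 CPM in the vector libraries and 59.9 to 63.3 CPM in the ZNF593-AS libraries. The 10 smooth muscle and pericyte markers summed to 190 to 222 and 225 to 310 CPM, with 4 under 1 CPM, and the 10 macrophage markers to 7.70 to 8.85 and 9.24 to 10.5 CPM, with 8 under 1 CPM. All 10 endothelial markers were under 1 CPM, Emcn had no count, and their sums were 1.88 to 2.23 and 2.18 to 2.87 CPM. The fibroblast, smooth muscle and macrophage sums were thus higher in every ZNF593-AS library than in any vector library. Single genes weighed heavily in them: Gsn averaged 38.1, Acta2 165 and Cd68 5.41 CPM over the 6 libraries. Pdgfra (0.39 ± 0.11 on the log2 scale, edgeR adjusted p = 0.037) and Cd68 (0.46 ± 0.13, adjusted p = 0.0316) rose. No other tested fibroblast, smooth muscle, macrophage or endothelial marker was called. In the atrial list Bmp10 fell (-7.24 ± 0.53, edgeR adjusted p = 3.23e-08) and was the only tested marker called. Log2 fold changes were negative for 3 of 9 tested fibroblast, 4 of 9 smooth muscle and 2 of 4 macrophage markers. The part of these markers in the results on collagens was not tested.

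With ZNF593-AS, 9 of the 30 tested collagen genes fell and 0 rose. The share that fell was 30% of the tested members, against 6.16% of the 16473 genes tested in all, and 2.23% of all genes rose. Of the 18 collagen genes that averaged 1 CPM or more, 6 fell, against 7.07% of all genes at that level. At an unadjusted p under 0.05, 14 collagen genes were lower and 0 were higher, against 11.2% lower and 9.18% higher of all genes. DESeq2 and limma-voom also called 9 collagen genes lower and 0 higher. The genes that fell were the fibrillar genes Col1a1, Col1a2, Col3a1, Col11a1 and Col24a1, the basement membrane gene Col4a1, the filament gene Col6a2, the fibril-associated gene Col9a3, and Col28a1. Over the 30 genes the median log2 fold change was -0.21, against 0.01 over all genes tested. Without the ZNF593-AS libraries whose treatment field differs, the median over 32 tested collagen genes was -0.14, against 0.0054 over all genes in that fit. Only 1 treated library was left there, so a count of calls is not given. In that fit the log2 fold change was -0.28 for Col1a2, -0.16 for Col4a1, -1.71 for Col24a1 and -0.61 for Col6a1. The main fit gave -0.25, -0.28, -1.34 and -0.26 for these genes. In these bulk samples, fewer cells that make a collagen and less of its RNA per cell cannot be told apart.

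**Figure D1:**
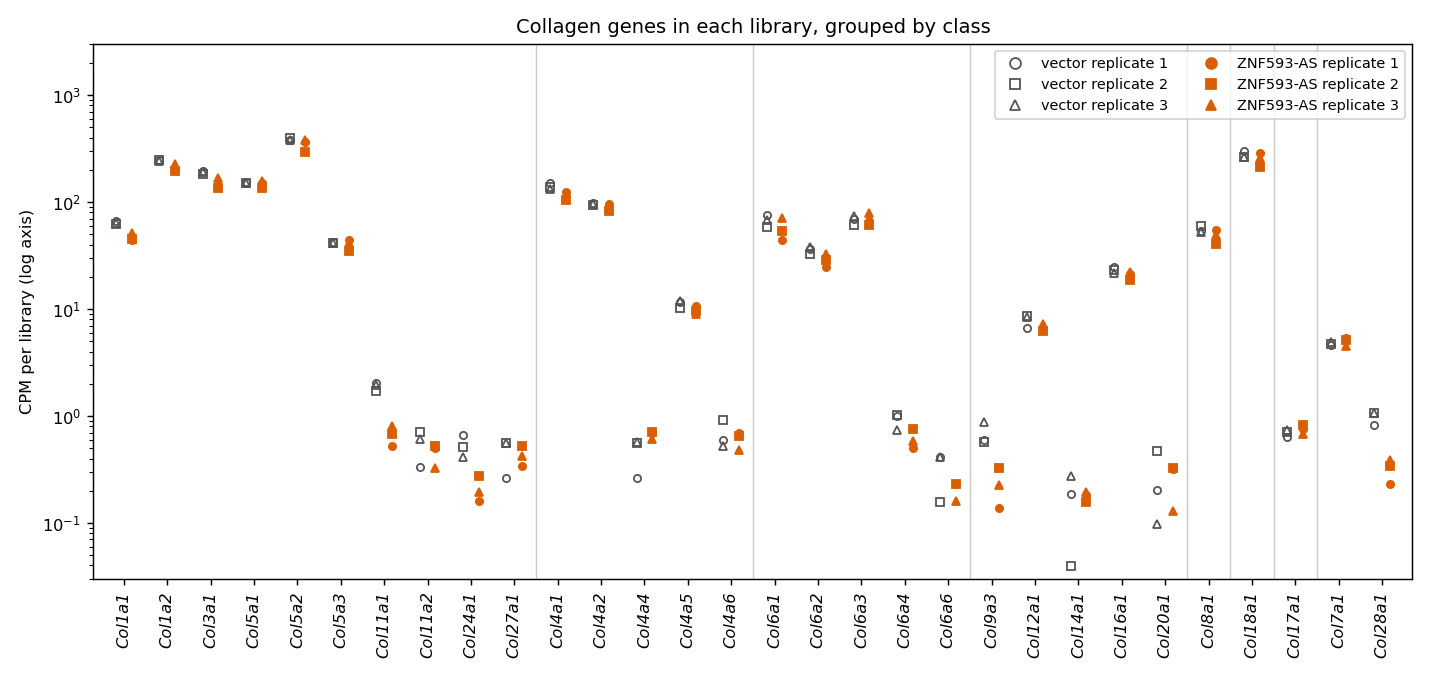
CPM (log axis) of the 30 tested collagen genes in each of the 3 vector libraries (open grey) and 3 ZNF593-AS libraries (filled orange), with a marker shape for each replicate number and vertical lines between classes. Levels run from 400 CPM for Col5a2 down to less than 1 CPM, and the widest gaps between groups are at Col11a1, Col24a1, Col9a3 and Col28a1.

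Promoter sequences are shown for 4 of these genes, because type I and III genes fell together and because Col4a1 and Col4a2 start from a shared stretch of DNA. RefSeq (GRCm38.p6) had a promoter entry for 35 of the 44 genes and for 7 of the 9 that fell; Col1a1 and Col9a3 were not among them. The 250 bases before the start of Col1a2 (chr6:4505368-4505617, plus strand) and of Col3a1 (chr1:45311288-45311537, plus strand) are printed 5′ to 3′. The RefSeq start of Col1a2 lies inside the span that the deposited table gives the gene. Capitals mark each match to one of 3 motifs, searched on both strands. The CCAAT box was searched as CCAAT. The letters used for the GC box were GGGCGG. For the TATA box they were TATAAA. No match overlapped another in these windows.
Col1a2: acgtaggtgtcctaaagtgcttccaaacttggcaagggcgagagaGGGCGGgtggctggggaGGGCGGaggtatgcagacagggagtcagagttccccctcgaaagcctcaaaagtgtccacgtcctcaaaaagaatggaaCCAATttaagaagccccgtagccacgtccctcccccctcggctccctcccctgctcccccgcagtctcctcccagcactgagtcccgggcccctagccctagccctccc
Col3a1: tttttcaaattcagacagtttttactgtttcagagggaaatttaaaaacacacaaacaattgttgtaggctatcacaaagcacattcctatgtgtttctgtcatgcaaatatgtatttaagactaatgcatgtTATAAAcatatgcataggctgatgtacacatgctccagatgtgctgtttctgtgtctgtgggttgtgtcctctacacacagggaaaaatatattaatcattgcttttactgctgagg
The Col1a2 window held 2 GC boxes and 1 CCAAT box and was 62% G or C, while the Col3a1 window held 1 TATA box and was 35.2% G or C. A GC box was found in 57.9% of the 38 collagen windows and 32.7% of all 32851 windows of the same length. For the CCAAT box the shares were 34.2% and 33.8%, and for the TATA box 13.2% and 12.4%. Of the 7 genes that fell and had an entry, 3 held a GC box (Col1a2, Col6a2 and Col11a1), 3 a CCAAT box (Col1a2, Col4a1 and Col11a1) and 1 a TATA box (Col3a1). These are matches of letters only.

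Type I collagen, the main fibril of connective tissue, is made of chains from Col1a1 and Col1a2. Col1a1 (GRCm38 chromosome 11, 94936224 to 94953042) stood at 65.7, 62.5 and 63.9 CPM with vector and at 44.0, 44.8 and 51.7 CPM with ZNF593-AS, values being listed here and after in the order of replicates 1 to 3. All treated libraries were below all vector libraries, with means of 64.1 ± 1.61 and 46.8 ± 4.19 CPM (SD, n = 3 each). The log2 fold change was -0.45 ± 0.07 (SE), or 1.37-fold lower (edgeR adjusted p = 0.000234). Col1a2 (chromosome 6, 4504814 to 4541544) was at 250, 248 and 243 CPM with vector and 203, 194 and 226 CPM with ZNF593-AS, again without overlap. Its fall was smaller, with a log2 fold change of -0.25 ± 0.07 (adjusted p = 0.0307). That call was lost on leaving out any single vector library, or replicate 1 or 2 of ZNF593-AS (edgeR adjusted p of 0.0545 to 0.197), and under library totals (0.131). The Col1a1 call held in every alternative run.

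Col3a1 encodes type III collagen, which mixes with type I in the fibrils of elastic tissues. It lies on chromosome 1 (45311538 to 45349706) and was at 195, 183 and 193 CPM with vector. In the ZNF593-AS libraries it was at 141, 134 and 169 CPM, so replicate 3 was the least changed, but the groups did not overlap. The log2 fold change was -0.36 ± 0.08, or 1.28-fold lower (edgeR adjusted p = 0.00725), and without ZNF593-AS replicate 2 it was -0.29 (adjusted p = 0.0595). Its exons share 141 bases with AC125167.1 on the same strand.

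Type V collagen starts fibrils and limits their width, and its genes did not pass the test. Col5a2, next to Col3a1 on chromosome 1 with a gap of 24614 bases and on the opposite strand, was the most abundant collagen gene per length, at a mean of 38.2 FPKM over the 6 libraries. It was at 383, 400 and 381 CPM with vector and 363, 294 and 378 CPM with ZNF593-AS. The groups did not overlap, but ZNF593-AS replicates 1 and 3 lay close under the vector libraries, and the log2 fold change of -0.17 ± 0.08 was not called (edgeR adjusted p = 0.271). Col5a1 was at 152 ± 0.874 and 148 ± 11.2 CPM (SD, n = 3; -0.04 ± 0.07) and Col5a3 at 41.8 ± 0.694 and 39.9 ± 4.76 CPM (-0.07 ± 0.08). Among all tested members, 9 had every ZNF593-AS library below every vector library, against 13.4% of all genes tested. These were the genes that fell except Col6a2, with Col5a2 in addition. The 1 tested member with every ZNF593-AS library above was Col4a4, against 12.4% of all genes.

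The largest falls were in rare collagen genes. Col11a1 (chromosome 3, 114030540 to 114220718), a type XI chain that is best known from cartilage, went from 2.05, 1.70 and 1.94 CPM to 0.526, 0.674 and 0.808 CPM. Its log2 fold change was -1.52 ± 0.21, or 2.86-fold lower (edgeR adjusted p = 7.36e-05), from 336 counts in the vector group and 148 in the ZNF593-AS group. Col24a1 (chromosome 3, 145292472 to 145552011), another minor fibrillar gene, was at 0.670, 0.513 and 0.415 CPM with vector and 0.160, 0.272 and 0.194 CPM with ZNF593-AS. The treated libraries were again all lower (log2 fold change -1.34 ± 0.36, adjusted p = 0.0298, 92 against 47 counts). The Col24a1 call was lost on leaving out replicate 1 or 2 of vector, or 1 or 3 of ZNF593-AS (adjusted p of 0.0673 to 0.147), while that of Col11a1 held in every alternative run. The remaining fibrillar genes tested, Col11a2 (-0.29 ± 0.34) and Col27a1 (-0.11 ± 0.35), were under 1 CPM and did not pass. In all, 5 of 10 tested fibrillar genes fell (50%, against 6.16% of all genes), and the class median was -0.27.

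Rare genes of other classes fell by as much. Col28a1 encodes type XXVIII collagen, known from peripheral nerve, and lies on chromosome 6 (7997808 to 8192617). It was at 0.819, 1.07 and 1.06 CPM with vector and 0.229, 0.337 and 0.388 CPM with ZNF593-AS, with no overlap. The log2 fold change was -1.65 ± 0.29, or 3.14-fold lower (edgeR adjusted p = 0.000925), on 175 and 70 counts, and the call held in every alternative that tested the gene. Col9a3 (chromosome 2, 180597790 to 180622189), a chain of the cartilage collagen IX that sits on fibril surfaces, was at 0.596, 0.573 and 0.871 CPM with vector. With ZNF593-AS it was at 0.137, 0.324 and 0.226 CPM (-1.59 ± 0.36, or 3.01-fold lower, adjusted p = 0.00935, 124 and 51 counts). Without vector replicate 3 its call ended (-1.36, adjusted p = 0.076). Col9a3 reached the filter level of 0.149 CPM in 2 of the 3 ZNF593-AS libraries and in all 3 vector libraries. It shares 234 exon bases with Tcfl5 on the opposite strand, whose mean was 0.0224 CPM with vector and 0 with ZNF593-AS.

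**Figure D2:**
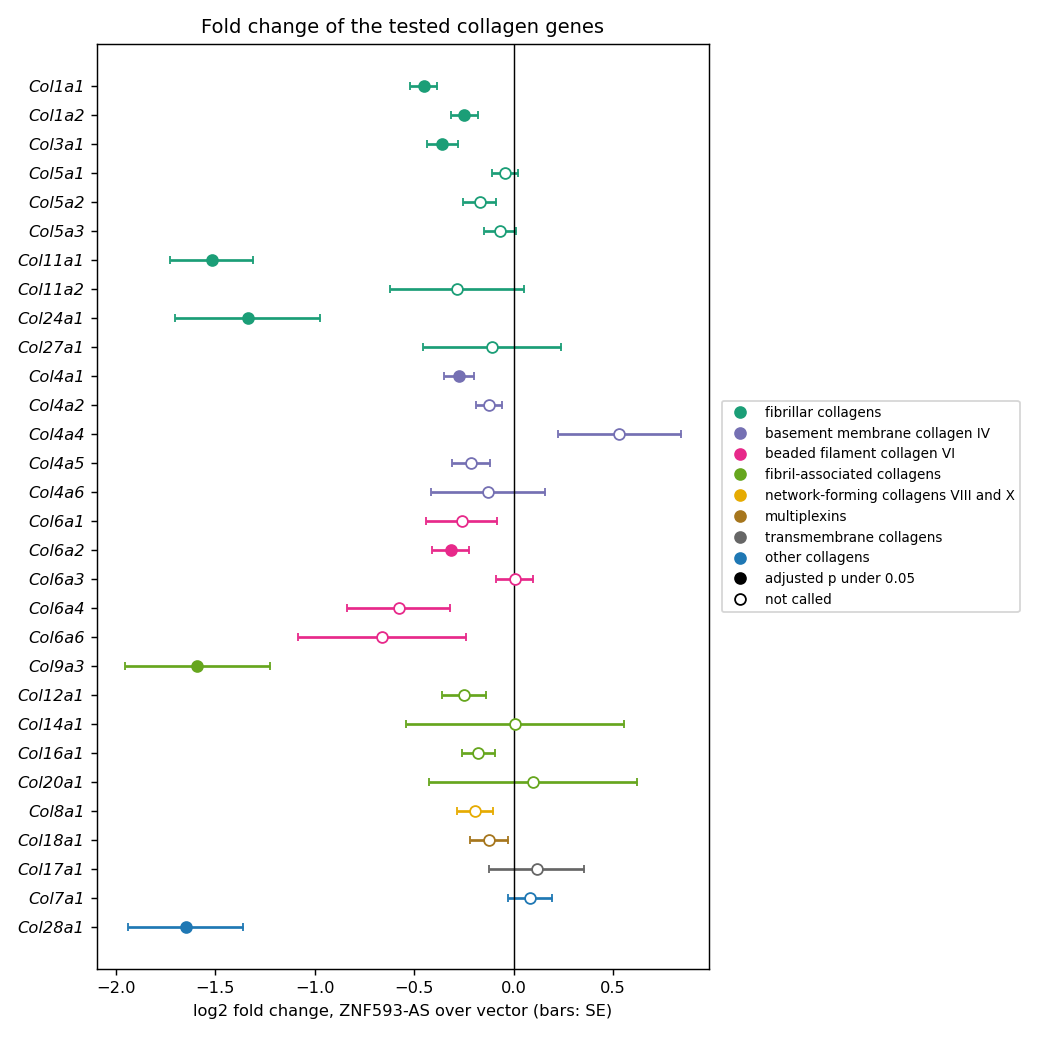
Log2 fold change of ZNF593-AS over vector (x axis; bars are SE) for the 30 tested collagen genes, coloured by class, filled where the edgeR adjusted p was under 0.05. All 9 filled points lie left of 0, with Col28a1 at -1.65, Col9a3 at -1.59 and Col11a1 at -1.52 farthest out, and 24 of the 30 points are negative.

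Type IV collagen is the network of basement membranes, and its genes lie in head-to-head pairs. Col4a1 (chromosome 8, 11198423 to 11312826, minus strand) and Col4a2 (11312805 to 11449287, plus strand) overlap by 22 bases at their starts. The 250 bases before each start are printed with these 22 bases in capitals, Col4a1 from chr8:11312805-11313076 on the minus strand and Col4a2 from chr8:11312555-11312826 on the plus strand. The capitals of the first sequence are the reverse complement of those of the second.
Col4a1: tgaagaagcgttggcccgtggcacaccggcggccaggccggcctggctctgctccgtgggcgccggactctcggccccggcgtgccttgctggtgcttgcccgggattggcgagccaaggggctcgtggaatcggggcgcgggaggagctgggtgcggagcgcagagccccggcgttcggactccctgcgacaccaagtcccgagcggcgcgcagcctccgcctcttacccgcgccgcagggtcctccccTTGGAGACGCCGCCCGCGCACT
Col4a2: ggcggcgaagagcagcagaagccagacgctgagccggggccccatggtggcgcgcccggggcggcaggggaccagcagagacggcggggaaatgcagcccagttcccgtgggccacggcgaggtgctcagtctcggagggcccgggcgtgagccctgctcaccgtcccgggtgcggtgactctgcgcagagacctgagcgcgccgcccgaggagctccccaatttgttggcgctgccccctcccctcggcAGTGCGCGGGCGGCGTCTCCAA
Col4a1 was at 150, 138 and 131 CPM with vector and 125, 104 and 117 CPM with ZNF593-AS, without overlap, and fell by 0.28 ± 0.07 on the log2 scale (edgeR adjusted p = 0.0294). This call was lost on leaving out replicate 1 or 2 of vector, or 2 or 3 of ZNF593-AS (adjusted p of 0.0535 to 0.192), and under library totals (0.0946). Its partner Col4a2 was at 98.5, 94.1 and 96.5 CPM with vector and 95.4, 82.0 and 87.7 CPM with ZNF593-AS. The groups overlapped there, and the log2 fold change of -0.12 ± 0.07 was not called (adjusted p = 0.301). No test of the difference between these neighbours was run, and the ratio of their levels is given with those of other partner chains.

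The other type IV pairs were rarer. Col4a5 on chromosome X, mutated in Alport syndrome of the kidney, was at 11.3 ± 0.885 and 9.69 ± 0.850 CPM (SD, n = 3; log2 fold change -0.22 ± 0.09, edgeR adjusted p = 0.205). Its neighbour Col4a6, 1308 bases away, was under 1 CPM (-0.13 ± 0.29). Col4a4 was at 0.261, 0.553 and 0.567 CPM with vector and 0.686, 0.713 and 0.614 CPM with ZNF593-AS, the only tested member with every treated library higher, and it was not called (0.53 ± 0.31, adjusted p = 0.363). Col4a3, 71 bases from Col4a4, had 23 counts in all and was not tested. Thus 1 of 5 tested type IV genes fell (20%, against 6.16% of all genes).

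Type VI collagen is built from a Col6a1 chain, a Col6a2 chain and one further chain, usually from Col6a3. Col6a2 (chromosome 10, 76595762 to 76623630) was at 36.7, 32.3 and 37.8 CPM with vector and 24.7, 28.6 and 32.7 CPM with ZNF593-AS. The groups touched, since ZNF593-AS replicate 3 was above vector replicate 2, and the fall of -0.32 ± 0.09 was close to the threshold (edgeR adjusted p = 0.0481). The call was lost on leaving out replicate 1 or 3 of vector, or 1 or 2 of ZNF593-AS (adjusted p of 0.145 to 0.175), under library totals (0.0971) and among genes of at least 1 CPM (0.0577). Col6a1, the most abundant of the class per length, was at 75.0, 58.5 and 67.5 CPM with vector and 44.0, 53.8 and 70.3 CPM with ZNF593-AS. ZNF593-AS replicate 3 lay among the vector libraries and the gene was not called (-0.26 ± 0.18, adjusted p = 0.492). Without that library it was called (-0.45, adjusted p = 0.0161). Col6a3 was at 68.6 ± 6.48 and 68.9 ± 9.62 CPM (SD, n = 3; 0.01 ± 0.09). Col6a4 (-0.58 ± 0.26) and Col6a6 (-0.66 ± 0.42), both under 1 CPM, did not pass.

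Of the remaining classes, the abundant members did not pass the test. Col18a1, whose protein lies in basement membranes and releases the fragment endostatin, was at 297, 265 and 265 CPM with vector and 288, 212 and 259 CPM with ZNF593-AS. Its groups overlapped (-0.12 ± 0.10, edgeR adjusted p = 0.521), and at 37.6 FPKM it stood next to Col5a2 in level per length. Col8a1, a network-forming collagen of vessels and the cornea, was at 54.1, 59.2 and 52.5 CPM with vector and 54.8, 40.9 and 49.0 CPM with ZNF593-AS (-0.20 ± 0.09, adjusted p = 0.239), and was called without ZNF593-AS replicate 1 (-0.30, adjusted p = 0.0367). Both genes were lowest in ZNF593-AS replicate 2. Col16a1, a fibril-associated collagen, was at 24.8, 23.1 and 21.6 CPM with vector and 21.0, 18.5 and 22.1 CPM with ZNF593-AS (-0.18 ± 0.08, adjusted p = 0.231). Col12a1, of the same class, was at 7.86 ± 1.04 and 6.62 ± 0.480 CPM (SD, n = 3; -0.25 ± 0.11). Col7a1, which anchors basement membranes in skin, was at 4.62, 4.70 and 4.87 CPM with vector and 5.39, 5.08 and 4.52 CPM with ZNF593-AS (0.08 ± 0.11). Col17a1, a transmembrane collagen of epithelial attachment, was at 0.633, 0.711 and 0.733 CPM with vector and 0.755, 0.817 and 0.678 CPM with ZNF593-AS (0.12 ± 0.24). In these last genes, Col7a1 and Col17a1, the groups overlapped.

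Of the 21 tested genes that were not called, 12 had a mean of at least 1 CPM, with log2 fold changes from -0.26 to 0.08, and 9 were rarer, from -0.66 to 0.53. Among the rarer ones were Col14a1 (0.01 ± 0.55) and Col20a1 (0.10 ± 0.52). Col14a1 reached the filter level of 0.149 CPM in 2 vector and 3 ZNF593-AS libraries, and Col20a1 in 2 libraries of each group. A further 14 members were too rare to test. No count was found for Col9a1 and Col26a1. The limit set by 3 fragments over the 6 libraries, with both mates counted, is 0.0149 CPM, counting error only. The other 12, Col2a1, Col4a3, Col6a5, Col8a2, Col9a2, Col10a1, Col13a1, Col15a1, Col19a1, Col22a1, Col23a1 and Col25a1, had 6 to 50 counts each over all libraries, and all 14 together had 220. The cartilage genes Col2a1, Col9a1 and Col10a1 were thus at or near 0 in cells that had Col11a1 and Col9a3 at low levels.

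Summed over the 44 genes, collagen RNA was at 1926, 1851 and 1854 CPM with vector and 1694, 1465 and 1767 CPM with ZNF593-AS. All treated libraries were lower, and the means differed by 12.5%. On the log2 scale the difference was -0.19, and -0.10 when levels were scaled by library totals. The fibrillar class made up more than any other, at 1086 ± 7.88 and 938 ± 93.2 CPM (SD, n = 3), a difference of 13.7%. Type IV summed to 248 ± 10.7 and 215 ± 18.1 CPM and the fibril-associated class to 32.3 ± 0.911 and 28.0 ± 2.14 CPM, both with no overlap between groups. TMM factors were 0.940 to 0.984 in the vector and 1.015 to 1.048 in the ZNF593-AS libraries, so the scaling itself widens such gaps. Overlap of CPM levels is stated throughout under this scaling, and was not examined under library totals. For type VI (173 ± 16.4 and 154 ± 25.4 CPM), the network-forming class (55.3 ± 3.48 and 48.3 ± 7.06 CPM) and the multiplexins (275 ± 18.4 and 253 ± 38.7 CPM) the groups overlapped. The 4 genes Col5a2, Col18a1, Col1a2 and Col5a1 held 52.0% of the collagen level per length.

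Abundant collagen genes varied more among the treated libraries than among the vector libraries. Of the 18 collagen genes of at least 1 CPM, 17 had a larger coefficient of variation with ZNF593-AS (median 10.7%) than with vector (median 6.47%). Over all 12948 genes at that level the share was 43.3%, with medians of 5.999% with ZNF593-AS and 6.87% with vector. ZNF593-AS replicate 2 was the lowest of its group in 12 of these genes and the highest in 0, while replicate 3 was the highest in 11. The vector libraries also had an order, with replicate 1 the highest in 11 and replicate 2 the lowest in 10. Relative to the vector mean, the median log2 level of the 18 genes was -0.12, -0.33 and -0.12 in ZNF593-AS replicates 1 to 3. All 3 libraries were thus below the vector mean on balance, with replicate 2 farthest.

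Ratios of partner chains, taken per length within each library, do not depend on library scaling. The deposited lengths join the exons of all transcripts, so the ratios are compared between libraries and not read as numbers of chains. Col1a1 over Col1a2 was 0.499, 0.478 and 0.499 with vector and 0.410, 0.437 and 0.433 with ZNF593-AS, lower in every treated library. Col4a1 over Col4a2 was 1.35, 1.30 and 1.21 with vector and 1.16, 1.12 and 1.19 with ZNF593-AS, also without overlap. Col5a1 over Col5a2 went the other way, from 0.452, 0.429 and 0.450 to 0.469, 0.521 and 0.471. The ratio of Col6a1 to Col6a2 overlapped between groups (3.58 ± 0.274 and 3.68 ± 0.359, SD, n = 3). Col6a1 over Col6a3 was 2.93, 2.60 and 2.49 with vector and 1.82, 2.41 and 2.41 with ZNF593-AS, again lower in every treated library. These pairs were chosen by the known make-up of the proteins, and no p-value is given for the ratios.

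**Figure D3:**
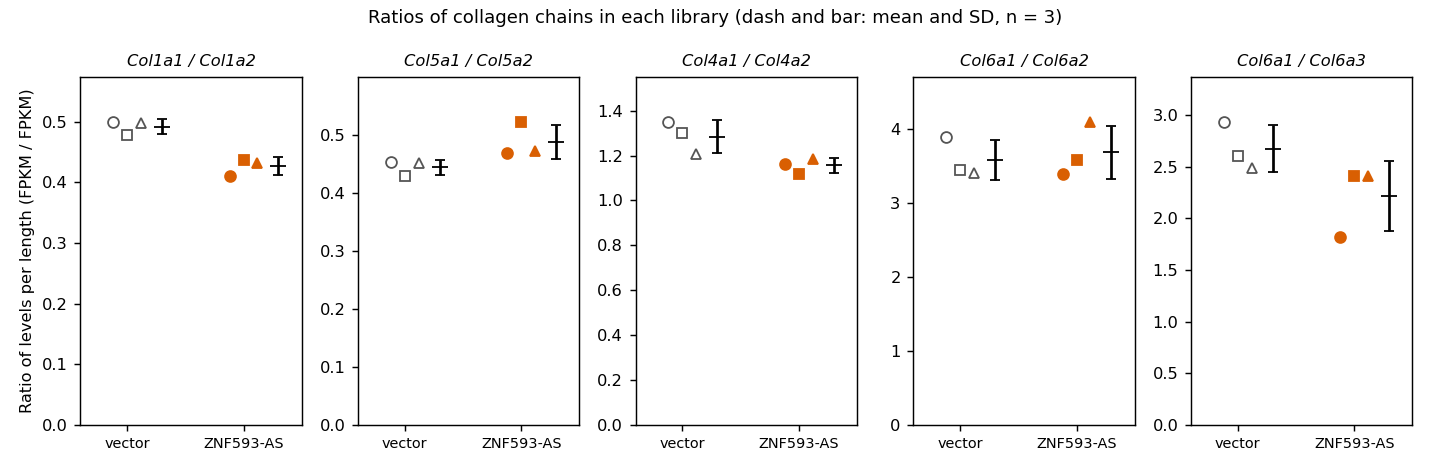
Ratio of levels per length (FPKM over FPKM, y axes from 0) of partner collagen chains in each vector and ZNF593-AS library; symbols are replicates 1 (circle), 2 (square) and 3 (triangle), and dashes with bars are mean and SD (n = 3). Col1a1 / Col1a2 (0.492 to 0.427 on average) and Col4a1 / Col4a2 (1.28 to 1.16) are lower with ZNF593-AS in every library.

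Genes whose log2 CPM followed that of Col5a2 over the 6 libraries were ranked among 12930 non-collagen genes of at least 1 CPM. The closest were Gm20528, Gm42987, Tm9sf1, Ephx1 and Slc29a1, with Pearson's r of 0.97 to 0.99. Collagen genes were left out of this ranking. This describes 6 libraries that share their depth and scaling.

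The genes that handle collagen moved in both directions. Of 75 tested genes in lists of folding, processing, receptors, degradation, TGF-beta signalling and basement membrane partners, 8 fell and 3 rose (10.7% lower, against 6.16% of all genes), with a median log2 fold change of -0.05. Without vector replicate 1, 5 of 76 were lower and 3 higher, while 1076 of all 16878 genes tested there were called in either direction.

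In the endoplasmic reticulum, where chains are hydroxylated and folded, 2 of 21 genes fell (9.52%) and 1 rose. Of all genes tested, 6.16% fell and 2.23% rose. Plod3, a lysyl hydroxylase that also adds sugars to collagen, was at 67.4, 61.3 and 57.3 CPM with vector and 41.3, 37.1 and 42.9 CPM with ZNF593-AS. The groups were well apart (-0.62 ± 0.07, edgeR adjusted p = 1.65e-05). It shares 529 exon bases with Znhit1 on the opposite strand, which was at 46.8 and 40.5 CPM and did not pass. Plod1, another lysyl hydroxylase, fell from 20.0 ± 1.81 to 15.9 ± 1.59 CPM (-0.33 ± 0.09, adjusted p = 0.0283), and P4ha3, a prolyl hydroxylase subunit, rose from 1.79 ± 0.297 to 2.67 ± 0.358 CPM (0.58 ± 0.17, adjusted p = 0.0416). The Plod1 call was lost on leaving out replicate 1 or 2 of vector, or 2 or 3 of ZNF593-AS (adjusted p of 0.0527 to 0.164), and under library totals (0.0783). The P4ha3 call was lost on leaving out replicate 2 or 3 of either group (0.104 to 0.195), in limma-voom (0.0589) and with the replicate block (0.0668). The collagen chaperone gene Serpinh1 was not called (-0.20 ± 0.09, adjusted p = 0.259); it is named here outside the naming rule.

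Outside the cell, procollagen is trimmed and cross-linked. There 2 of 13 genes fell (15.4%) and 1 rose, against 6.16% and 2.23% of all genes. Loxl3, a lysyl oxidase that cross-links collagen and elastin, was at 23.0, 24.1 and 22.2 CPM with vector and 8.47, 8.32 and 9.38 CPM with ZNF593-AS (-1.41 ± 0.08, edgeR adjusted p = 1.08e-09). Lox, of the same enzyme family, was at 55.3, 52.6 and 57.1 CPM with vector and 80.1, 76.9 and 84.0 CPM with ZNF593-AS (0.55 ± 0.06, adjusted p = 8.5e-06). These related enzymes thus moved in opposite directions, each without overlap between groups. Loxl3 shares 535 exon bases with Htra2 on the opposite strand, which was at 25.1 and 22.2 CPM and did not pass. Bgn, which encodes the fibril-binding proteoglycan biglycan, fell from 209 ± 15.8 to 169 ± 6.08 CPM (-0.31 ± 0.07, adjusted p = 0.00687), a call lost on leaving out vector replicate 1 (0.0545).

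Of 6 tested genes of collagen degradation, 2 fell (33.3%) and 1 rose, against 6.16% and 2.23% of all genes. Timp2, an inhibitor of metalloproteinases, was at 198, 187 and 195 CPM with vector and 147, 128 and 139 CPM with ZNF593-AS (-0.49 ± 0.07, edgeR adjusted p = 6.38e-05). Timp3, another inhibitor, rose from 120 ± 16.1 to 173 ± 7.60 CPM (0.52 ± 0.08, adjusted p = 0.000494), but 1733 of its exon bases lie in Syn3 on the opposite strand, which rose by 0.54, so the reads of the pair cannot be told apart there. Mmp2, the gelatinase that cuts denatured collagen, fell from 53.3 ± 2.68 to 45.0 ± 2.41 CPM (-0.24 ± 0.07, adjusted p = 0.0297), a call lost on leaving out replicate 1 or 2 of vector, or 2 or 3 of ZNF593-AS (0.0839 to 0.161), and under library totals (0.183).

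TGF-beta signalling is the pathway best known for raising collagen transcription, but its part in the collagen results was not tested. Of 17 tested genes in its list, 2 fell (11.8%) and 0 rose, against 6.16% and 2.23% of all genes. They were Thbs1, an activator of latent TGF-beta, at 28.6 ± 0.999 and 20.0 ± 2.50 CPM (-0.51 ± 0.09, edgeR adjusted p = 0.000541), and Tgfb3, a ligand, at 21.5 ± 1.74 and 16.1 ± 1.07 CPM (-0.42 ± 0.08, adjusted p = 0.00228). Both calls held in all 14 alternatives run for them. At an unadjusted p under 0.05, 4 genes of this list were lower and 2 higher (of all genes 11.2% and 9.18%), and DESeq2 and limma-voom each called 2 lower and 0 higher. None of 7 tested collagen receptor genes passed edgeR, and 0 had an unadjusted p under 0.05; Itga1, an integrin chain that binds collagen, had the smallest p (0.75 ± 0.42). None of 11 basement membrane partner genes passed, with 2 lower and 0 higher at an unadjusted p under 0.05, where 11.2% and 9.18% of all genes stood. For both lists DESeq2 and limma-voom also called 0 genes. Pxdn, whose enzyme links type IV collagen, had the smallest p (-0.29 ± 0.10, adjusted p = 0.114) and was called without ZNF593-AS replicate 1 (-0.43, adjusted p = 0.0109).

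**Figure D4:**
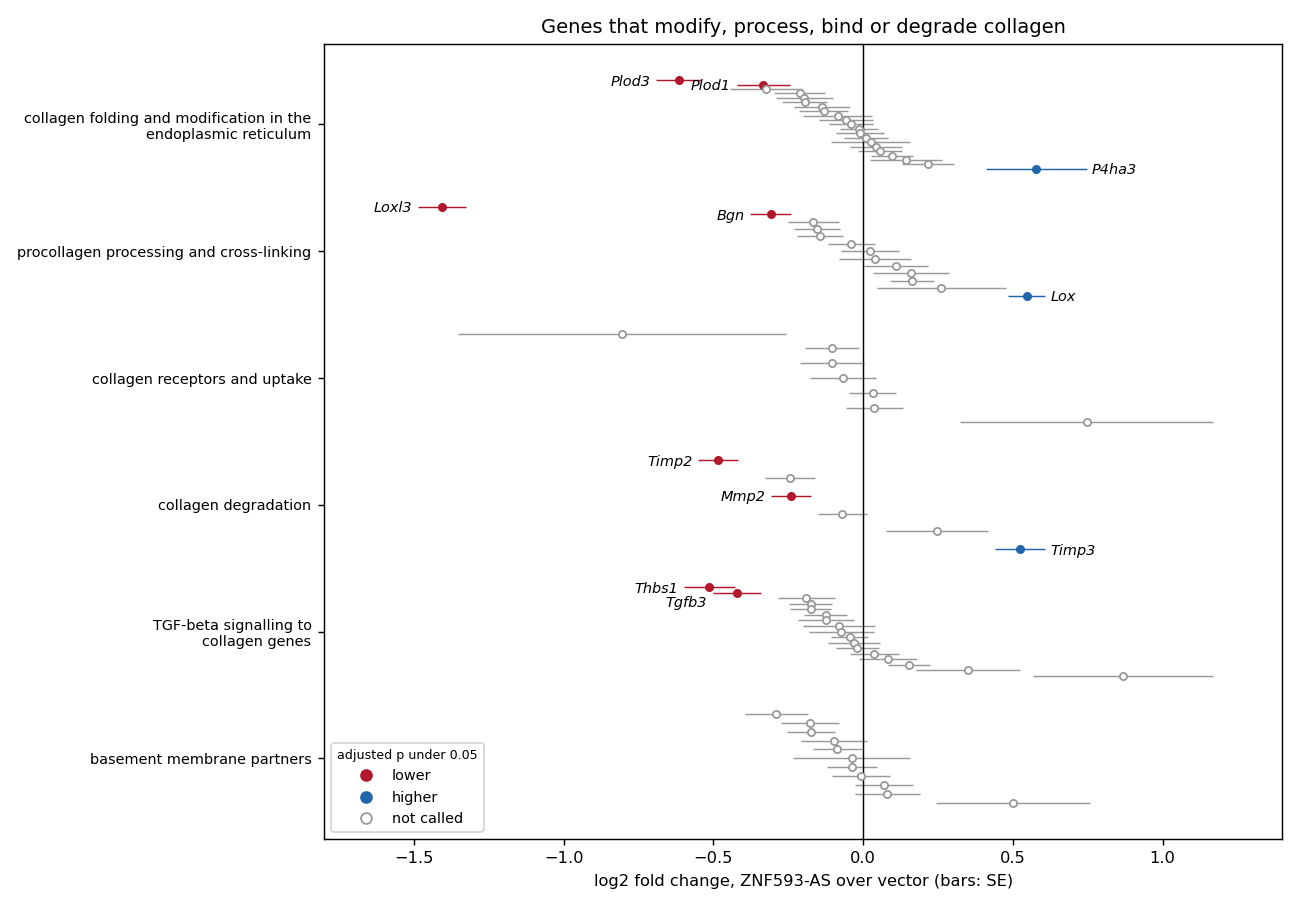
Log2 fold change of ZNF593-AS over vector (x axis; bars are SE) for 75 tested genes that handle collagen, in 6 lists (rows); red and blue are genes with an edgeR adjusted p under 0.05 that were lower or higher, and open grey points were not called. Loxl3 stands apart at -1.41, and Lox, Timp3 and P4ha3 are the 3 genes to the right that passed.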

How the data were processed

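RNA was extracted with Trizol and Illumina libraries were made from it, per the labels' protocols. The authors deposited raw counts, whole numbers for each gene, beside gene lengths and coordinates. The submitters' processing notes name TopHat2, Bowtie2, cutadapt 1.2.1, CASAVA and GRCm38. Which program counted the reads, and whether by strand, is not given in the sources used here. A count of 2 was far more common (2160 to 2359 genes per library) than a count of 1 (365 to 492 genes), so each fragment seems to have counted once per mate. Overlapping genes on opposite strands are therefore uncertain.

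Samples were grouped by title; the labels do not say that replicates are separate cultures, so a p-value reflects the spread among these 6 samples alone, possibly only technical. Libraries of a group differed by more than sampling noise (lowest chi-square 9.97 per gene, halved counts). Genes passing filterByExpr (minimum count 10, minimum total 15) were tested with edgeR 4.0.16 in R 4.3.3 (TMM, 2-sided robust quasi-likelihood F test, p-values adjusted by Benjamini-Hochberg over 16473 genes, threshold 0.05). "Fell", "rose" and "called" mean an adjusted p under 0.05 there. SEs were derived from the F statistic as the absolute log2 fold change over its square root. In 3 simulations of 16225 to 16263 genes, 200 genes were set to change, all with a mean of at least 1 CPM. edgeR called 86.7% of those set to change 1.5-fold and 98.3% of those set to change 2-fold, and 8.22% of its calls were false. Recovery of rarer genes, or of changes smaller than 1.5-fold, was not simulated. Alternatives were RLE factors, library totals, DESeq2 1.42.0, limma-voom (limma 3.58.1), other filters, halved counts, a replicate block and leaving out libraries; the removal of both ZNF593-AS libraries with another treatment field was chosen after seeing the data.

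Named genes are every called collagen gene, the most abundant member of each class per length, and other members of at least 1 CPM. Added to these are up to 4 called genes per direction of each handling list (or the one with the smallest p). The 5 non-collagen genes most like Col5a2 are also named. The other, rarer collagen genes are named outside this rule. The collagen genes and lists were chosen with earlier results of these data known. Up to 4.87% of the 50-base stretches of a collagen gene's transcripts (Col9a3) occurred in other genes in GENCODE M21 of GRCm38.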

Additional observations from a re-analysis of the deposited data

How the results depend on the processing

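The count of 9 lower collagen genes was the same with RLE factors, DESeq2, limma-voom, no filter, halved counts and the replicate block. It was 6 with library totals and 5 among genes of at least 1 CPM, where 18 members were tested. It was 5 to 8 when 1 library was left out, the lowest being reached on leaving out vector replicate 1 or ZNF593-AS replicate 2. Over all genes, the main fit called 1383 of 16473 in either direction. Library totals raised this number to 2095, while the collagen count fell. Among genes of at least 1 CPM it was 1268 of 12946. Dropping 1 library gave 965 to 1356 called genes, with 1076 for that vector library and 965 for that ZNF593-AS library. The causes were not tested beyond the smaller number of genes or samples. The count of higher collagen genes was 0 in all these settings. The median log2 fold change of -0.21 became -0.11 with library totals, which moved the median of all genes to 0.10, -0.17 with no filter, where 42 members were tested, and -0.14 without both libraries whose treatment field differs. With library totals the log2 ratio of summed levels moved up in every class: from -0.19 to -0.10 for all collagens, from -0.21 to -0.12 for the fibrillar, type IV and fibril-associated classes alike, from -0.16 to -0.069 for type VI, from -0.20 to -0.11 for types VIII and X, from -0.12 to -0.031 for the multiplexins, from -0.10 to -0.013 for the other collagens and from 0.12 to 0.20 for the transmembrane class. Genes of collagen handling numbered 5 to 11 lower and 2 to 3 higher when 1 library was left out, and 6 higher with library totals. Direction turned for members near 0 that were not called. With library totals Col5a1 was 0.048 and Col5a3 0.022. Without both libraries whose treatment field differs Col5a3 was 0.074, Col18a1 0.068 and Col6a3 -0.051, and in limma-voom Col6a3 was -0.00070. When 1 library was left out, Col5a1 ranged from -0.088 to 0.016, Col5a3 from -0.15 to 0.023 and Col6a3 from -0.11 to 0.086. Deviations of same-numbered samples had correlations of -0.029, -0.03 and 0.049, against -0.057 to 0.079 for differently numbered samples. These values cannot show whether samples were paired by replicate number. With the replicate block 9 collagen genes were lower and 0 higher. Counts of 47 to 175 per group stand behind Col24a1, Col28a1 and Col9a3, which limits their precision.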
